A study of Homo sapiens with 9 samples.

Results

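Mitochondrial ribosomal protein genes were followed in KGN cells, an established human line derived from a granulosa cell tumour of the ovary. The genes were taken by symbol: every gene of the count table named MRPL or MRPS, followed by digits and, where present, a letter A, B or C. This gave 78 of the 15983 genes in the table. Of these, 51 encode proteins of the large subunit and 26 proteins of the small subunit. MRPS30 and MRPS18A carry small-subunit names but sit in the large subunit and were counted there. The remaining gene, MRPS36, carries a ribosomal name for a protein now known as KGD4, a component of the 2-oxoglutarate dehydrogenase complex. After removal of genes with low counts 77 of the 78 could be tested, the exception being MRPS24.

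The study sequenced RNA from KGN cells that were fasted for 12 h and then kept for 72 h in solvent (the control), in 0.5 µg/ml insulin (the lower dose) or in 1 µg/ml insulin (the higher dose). Each group held 3 libraries, and no genetic change or further agent is named for any of them. The stated design asks how these cells respond to insulin. Whether replicates were separate cultures is not stated in the labels. The p-values therefore measure no more than the spread between these samples, and that spread may be technical.

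The mitochondrial ribosome translates the few messenger RNAs made inside mitochondria, which in mammals all encode membrane subunits of the respiratory chain and ATP synthase. All of its proteins are encoded in the nucleus, made in the cytosol and imported, while its ribosomal RNAs are made in the organelle. Some of the proteins descend from bacterial ribosomal proteins, and others have no bacterial counterpart. Steroid-forming cells such as granulosa cells make the first steroid of the pathway on the inner mitochondrial membrane, and insulin is a known stimulus of ribosome production in many cell types.

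The promoters of these genes can be set beside each other before their expression is described, because transcription factors of the ETS family, YY1 and NRF1 are known regulators of nuclear genes for mitochondrial proteins. RefSeq promoters on GRCh38.p14, from 250 bases before to 50 bases after the annotated start, were matched by symbol for 70 of the 78 genes, MRPS36 among them under KGD4. The YY1 motif AAGATGGCG, searched on both strands, was present in 13 of them (18.6%), against 3.99% of 10428 promoters of tested genes and 1.85% of all 27305 promoters in the table. It was also found in 11.5% of promoters of nuclear respiratory chain subunits and in 7.94% of those of cytosolic ribosomal proteins. In 10 of the 13 promoters the match began at or after the annotated start, in all 10 on the coding strand. The start codon letters ATG lie within the motif, and whether the matches serve as translation starts was not tested. The 13 genes were MRPL22, MRPL32, MRPL36, MRPL38, MRPL42, MRPL46, MRPL50, MRPL52, MRPS10, MRPS18A, MRPS18B, MRPS24 and MRPS30. The motif begins at the same distance from the start in MRPL42 and MRPL46, in MRPL50 and MRPS18B, and in MRPS10 and MRPS18A. Of these pairs the last is shown. Each line runs 5′ to 3′ on the minus strand from 35 bases before the start to 25 bases from it, with the YY1 motif in capitals, for MRPS10 at chr6:42217837-42217896 and MRPS18A at chr6:43687767-43687826.
MRPS10: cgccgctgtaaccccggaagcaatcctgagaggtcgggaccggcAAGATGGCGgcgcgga
MRPS18A: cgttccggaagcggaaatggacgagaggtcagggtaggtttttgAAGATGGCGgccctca

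The ETS motif CCGGAAGT was present on either strand in 11 of the 70 promoters (15.7%), against 8.79% of tested genes and 4.44% of all promoters. The shares were 14.8% for respiratory chain subunits and 14.3% for cytosolic ribosomal proteins. These promoters belonged to MRPL3, MRPL16, MRPL20, MRPL27, MRPL38, MRPL47, MRPL51, MRPL52, MRPL53, MRPS22 and MRPS34. Stretches of 60 bases that end at the start are shown for 4 of them, among which are highly expressed members of both subunits. All lie on the minus strand: MRPL3 at chr3:131502972-131503031, MRPL20 at chr1:1407294-1407353, MRPL47 at chr3:179604639-179604698 and MRPS34 at chr16:1773135-1773194. Capitals mark the ETS motif, which in MRPS34 lies on the opposite strand and therefore reads as its reverse complement.
MRPL3: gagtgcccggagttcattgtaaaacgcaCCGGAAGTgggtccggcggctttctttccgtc
MRPL20: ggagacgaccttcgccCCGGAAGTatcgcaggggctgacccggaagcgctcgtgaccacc
MRPL47: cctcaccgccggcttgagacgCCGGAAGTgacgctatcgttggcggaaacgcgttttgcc
MRPS34: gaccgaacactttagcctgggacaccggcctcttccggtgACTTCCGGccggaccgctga

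The NRF1 motif GCGCATGCG, on either strand, was found in the promoters of 3 genes, MRPL17, MRPL22 and MRPS18C (4.29%), against 3.67% of tested genes and 16.4% of respiratory chain subunits. The TATA motif TATAAA was found in the promoters of MRPL54, MRPS15 and MRPS36 (4.29%), against 5.72% of tested genes. At least 1 of the YY1, ETS and NRF1 motifs was present in 24 promoters (34.3%), against 15.4% of tested genes. Each stretch shown holds only 1 marked motif, and shares depend on the letters chosen for a motif. The median GC content of the 70 promoters was 60.3%, against 65.3% for tested genes. A match describes the letters of the window and not the binding of a factor, and no measure of binding was made in this study.

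Library totals ran from 18965722 to 20446405 counts, and the share held by the 78 genes ran from 0.237% to 0.247%. Granulosa cell genes were present, with the transcription factor GATA4 at 38.3 FPKM, NR5A1 at 20.1, FOXL2 at 9.0 and the FSH receptor gene FSHR at 1.47 as means over the 9 libraries. INHA, also a granulosa cell gene, stood at only 0.485 FPKM (118 counts in all). WNT4 and AMHR2 had 56 and 34 counts in all and were removed by the count filter. Of markers for other cells, CYP17A1, INSL3 and HBB had 1 count each, CDH5 3, LYZ 5 and EPCAM 7 over all libraries. The epithelial keratin gene KRT18 stood at 1173 FPKM and the collagen gene COL1A1 at 1524 FPKM. ACTA2 and THY1, of fibroblasts and smooth muscle, stood at 224 and 42.9 FPKM, and the keratin gene KRT8 at 27.7 FPKM. CDH1 (epithelial), PTPRC (immune), DCN (fibroblast) and VWF (endothelial) also passed the filter, with 896, 322, 273 and 228 counts.

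Levels are given as the authors' FPKM, reads scaled by gene length and by library size, which allows genes of different lengths to be compared. The 77 tested genes had a median of 17.7 FPKM and spanned a 28-fold range, while the median over all 12665 tested genes was 6.83 FPKM. The median was 51.8 FPKM for 74 nuclear subunits of the respiratory chain and 400 FPKM for 78 cytosolic ribosomal protein genes. Of the 78 genes 56 reached a mean of 10 FPKM. Large-subunit genes had a median of 18.6 FPKM and small-subunit genes one of 17.2 FPKM. Products of these genes meet in 1 particle in mostly equal copy numbers, whereas their RNA levels differed widely.

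MRPL24, a protein at the peptide exit tunnel of the large subunit, was the most abundant, at 74.7 ± 2.81 FPKM over the 9 libraries (SD, n = 9 here and in the rest of this paragraph). MRPS34, a small-subunit protein with no bacterial counterpart, stood at 69.4 ± 4.81 FPKM and MRPL51, a large-subunit protein also without one, at 68.9 ± 3.74 FPKM, which lie within the spread of each other. MRPL18, MRPS21 and MRPL3 followed with 49.0 ± 2.22, 45.7 ± 3.19 and 43.1 ± 2.20 FPKM, again with neighbours inside their spread. At the low end were MRPS23 at 5.02 ± 0.437, MRPL50 at 3.50 ± 0.292, MRPS28 at 3.11 ± 0.510, MRPL23 at 2.86 ± 0.927 and MRPL42 at 2.67 ± 0.154 FPKM. The last 3 were not separated by their spread. The gene lengths implied by the deposited FPKM bear on this order. MRPL42 was given a length of 15560 bases, and for 5 genes the length exceeded that of the main GENCODE 29 transcript more than 2 times, reaching 4.52 times for MRPL23. Per kilobase of the main transcript, MRPL23 stood at rank 56 of 78, against rank 76 by FPKM. Other genes shifted further, with MRPL53 at rank 57 against 17 by FPKM, MRPL43 at 8 against 45 and MRPL41 at 44 against 10, so their ranks depend on the length used. MRPL18 stood at rank 11 against 4, while MRPL24, MRPS34 and MRPL51 kept ranks 1 to 3, and MRPL42 and MRPS24 kept ranks 77 and 78. For MRPL42 the main transcript is itself 15582 bases long, nearly the length given to it, so its unchanged rank cannot test that length.

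**Figure D1:**
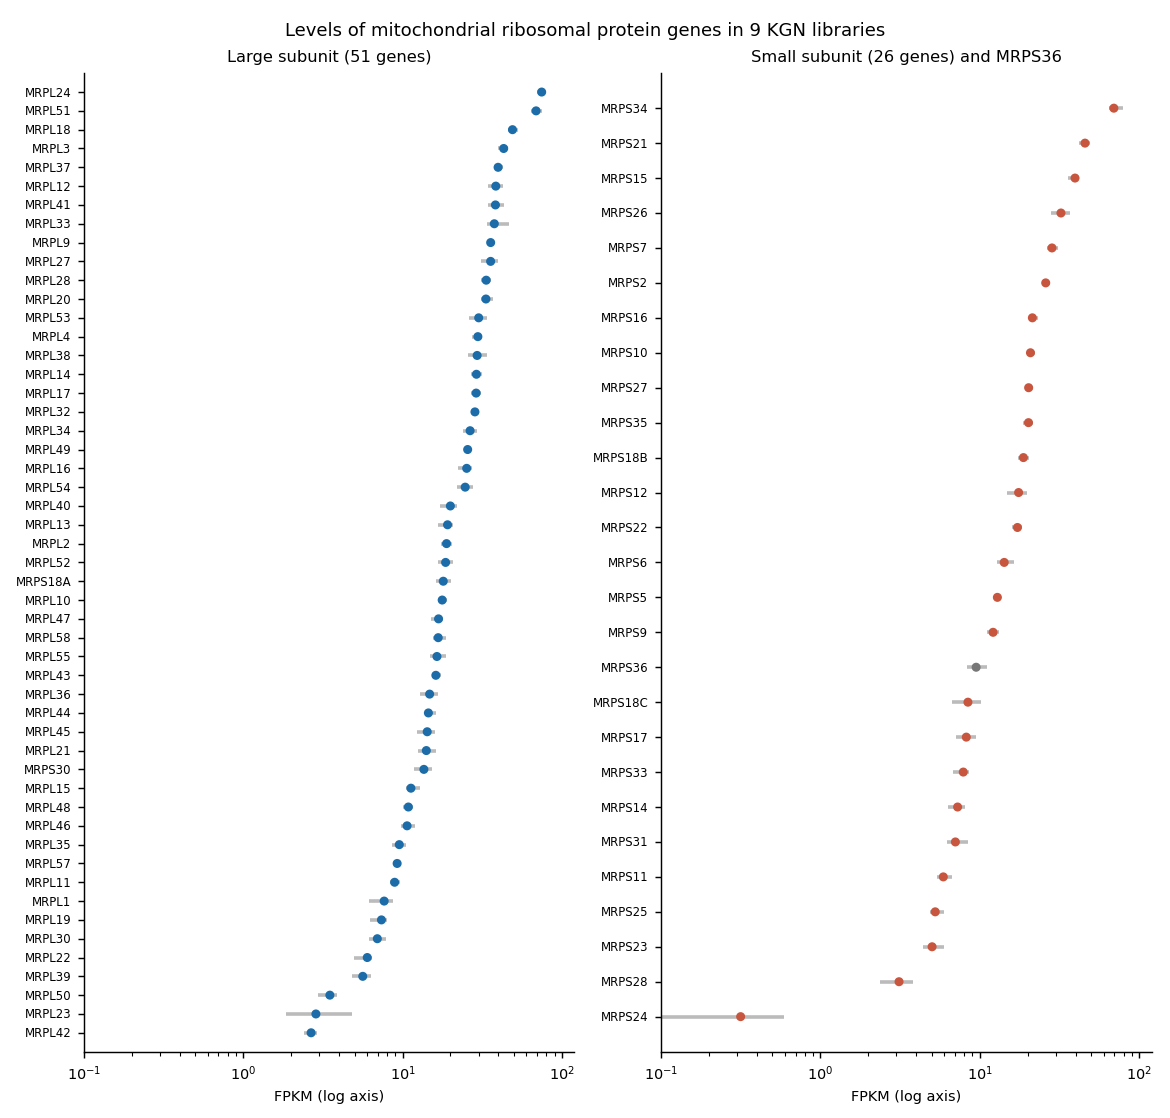
Mean FPKM (log axis) of each mitochondrial ribosomal protein gene over the 9 libraries, large subunit on the left, small subunit and MRPS36 (grey) on the right; grey lines run from the lowest to the highest library. Most genes lie between 10 and 75 FPKM, and MRPS24 (0.316 FPKM, its line cut off at 0.1) lies apart from the rest.

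MRPS24, a small-subunit protein of bacterial ancestry, had 38 counts over all 9 libraries. These were 2, 4 and 8 counts in control, 4, 2 and 0 at the lower dose and 7, 7 and 4 at the higher dose, so that most libraries lie near the floor of 3 counts (0.147 to 0.158 CPM) and the groups overlap. In GENCODE 29, 85.7% of its main transcript on chromosome 7 (hg38, 43866558 to 43869893, minus strand) is shared with the readthrough gene URGCP-MRPS24 on the same strand. How the authors' counting treated reads in shared exons is not given in the sources used here, and the part of this overlap in the low count was not tested.

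Across the 9 libraries the genes held steady to about the same degree as others. The median coefficient of variation of CPM (counts scaled to library size after TMM) was 7.0%, against 6.75% for all tested genes. Among genes with at least 10 CPM the smallest values were 2.25% for MRPL9, 2.92% for MRPS5, 3.01% for MRPL49 and 3.51% for MRPL37. MRPL9, a large-subunit protein of bacterial ancestry, read 44.2, 42.5 and 43.4 CPM in control, 43.8, 44 and 42.8 CPM at the lower dose and 44.5, 45.7 and 43 CPM at the higher dose. The largest values were 11.0% for MRPS18C and MRPS12, 10.6% for MRPL33 and 10.4% for MRPS17. MRPS12, a protein of the decoding centre, read 19.2, 16.7 and 15 CPM in control, 19.8, 14.6 and 18.5 CPM at the lower dose and 18.8, 15.6 and 17.1 CPM at the higher dose, so its spread lay within the groups.

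No mitochondrial ribosomal protein gene passed the test at either dose of insulin. With the edgeR quasi-likelihood test and Benjamini-Hochberg adjustment over all 12665 tested genes, 0 of the 77 genes passed an adjusted p of 0.05 in any comparison, where 0% of all genes passed. The smallest adjusted p of any member in any comparison was 0.764. DESeq2 also called 0. The data did bound the size of a change: over both doses the 95% intervals of the fold changes against control lay between 0.515-fold and 1.34-fold. In bulk RNA, fewer cells of a type and less RNA per cell cannot be told apart.

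At the lower dose 70 of the 77 genes had a 95% interval inside 1.3-fold in both directions, against 77.2% of all tested genes, and 76 had one inside 1.5-fold, against 87.5%. The corresponding counts at the higher dose were 74 (all tested genes: 78.1%) and 75 (87.9%). Between the doses they were 71 (all tested genes: 77.2%) and 75 (87.5%). MRPS28 had the lowest mean among the members tested, at 2.61 CPM. The median standard error of a log2 fold change was 0.0779 at the lower dose and 0.0776 at the higher dose. Over all tested genes it was much the same, at 0.0770 and 0.0768. Why a larger share of these genes had narrow intervals was not tested.

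The log2 fold changes scattered around 0. At the lower dose against control 43 of 77 were above 0, against 51.9% of all tested genes, and the median was 0.0044, against 0.0045 over all tested genes. At the higher dose 42 were above 0, against 49.8%, with a median of 0.019 against -0.0002. Both comparisons use the same control libraries. By sign, 28 genes were above 0 at both doses, 20 below 0 at both, 15 above 0 at the lower dose only and 14 at the higher dose only. Large-subunit genes were above 0 in 29 of 51 cases at the lower dose and 27 of 51 at the higher dose, and small-subunit genes in 13 and 15 of 25. Genes with a bacterial counterpart were above 0 in 28 and 24 of 45, and those without one in 13 and 17 of 29.

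**Figure D2:**
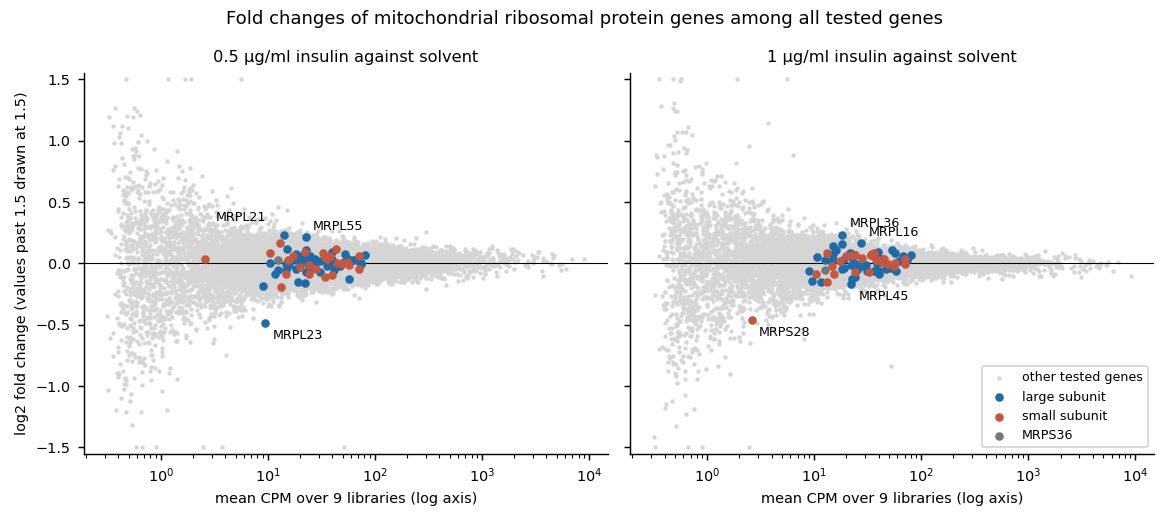
Log2 fold change against control (vertical axis) by mean CPM over 9 libraries (log axis) at 0.5 µg/ml (left) and 1 µg/ml insulin (right); coloured points are the 77 tested mitochondrial ribosomal protein genes, grey points the other tested genes, and values past 1.5 are drawn at 1.5. The coloured points lie in the band of other genes of like abundance, with MRPL23 (-0.48) at the lower dose and MRPS28 (-0.46) at the higher dose farthest from 0.

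At the lower dose against control, 3 genes had an unadjusted p under 0.05, against 6.08% of all tested genes. Of these 2 were higher (all tested genes: 2.87%) and 1 was lower (3.21%). DESeq2 gave 2 genes at that level in all. MRPL55, a large-subunit protein, read 26, 21.9 and 25.7 CPM at the lower dose, against 20.7, 22.7 and 20.2 CPM in control. The groups overlap through the second lower-dose library and the second control library. The log2 fold change was 0.21 ± 0.08 (SE; edgeR, unadjusted p = 0.0199, adjusted p = 0.764). MRPL21, a large-subunit protein of bacterial ancestry whose gene starts 7 bases from that of IGHMBP2 on the opposite strand, read 15.4, 15.3 and 16.6 CPM at the lower dose, against 13.4, 12.9 and 14 CPM in control. Here the groups did not overlap, yet the adjusted p from edgeR was 0.792 at a log2 fold change of 0.23 ± 0.09 (SE), whose interval runs from 1.02- to 1.34-fold. At the higher dose MRPL21 read 15.4, 12.9 and 12.6 CPM, inside the control range but for 1 library above it and 1 below.

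MRPL23, a protein at the mouth of the exit tunnel, read 10.4, 6.78 and 6.20 CPM at the lower dose, against 7.77, 8.79 and 16 CPM in control. The third control library stood far above the other two, and the groups overlap. The log2 fold change of -0.48 ± 0.23 (SE; edgeR, unadjusted p = 0.0479, adjusted p = 0.792) was -0.09 without the third control library and -0.75 without the first lower-dose library. Of the 77 genes MRPL23 was the least even, with a coefficient of variation of 32.1%.

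Groups did not overlap for 7 genes (all tested genes: 10.7%), 4 higher at the lower dose (5.1%) and 3 lower (5.61%). The 4 were MRPL21, MRPL24, MRPL28 and MRPS2, and the 3 were MRPL19, MRPS6 and MRPS35. MRPS2, a small-subunit protein of bacterial ancestry, read 45.9, 44.6 and 45 CPM at the lower dose, against 42, 42 and 41.1 CPM in control, with a log2 fold change of 0.11 ± 0.06 (SE; edgeR, adjusted p = 0.792). MRPS6, likewise of bacterial ancestry, read 12, 12.4 and 13.2 CPM at the lower dose, against 14.1, 13.7 and 15.2 CPM in control, with -0.19 ± 0.09. Neither passed the test over all genes. MRPL24 was barely separated from control, since its lowest lower-dose library and highest control library both round to 80.6 CPM, and 6 genes in all were free of overlap with RLE size factors. By the order of p, the genes next above 0 were MRPS18C, MRPL38 and MRPL52 (log2 fold changes of 0.10 to 0.16), and those next below 0 were MRPL45, MRPL33, MRPS33 and MRPL1 (-0.19 to -0.11).

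At the higher dose against control, 4 genes had an unadjusted p under 0.05, against 2.35% of all tested genes. Of these 2 were higher (all tested genes: 1.09%) and 2 were lower (1.26%). DESeq2 gave 1 gene at that level. MRPL36, a small zinc-binding protein of the large subunit, read 19.97, 20.36 and 19.97 CPM at the higher dose, against 15.9, 16.9 and 18.4 CPM in control. The higher-dose libraries were nearly level and lay above every control library. The log2 fold change was 0.23 ± 0.09 (SE; edgeR, unadjusted p = 0.0149, adjusted p = 1.00), with an interval from 1.04- to 1.34-fold. At the lower dose MRPL36 read 19.6, 16 and 16.7 CPM, with 1 library above and 2 within the control range. Of its main transcript, 54.7% has a near-identical copy at AC016700.1, so its counts are uncertain. Its gene lies 34 bases from the start of NDUFS6, a respiratory complex I gene on the opposite strand.

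MRPL16, a protein close to the peptidyl transferase centre, read 29.2, 29.5 and 28.9 CPM at the higher dose, against 29.5, 24.3 and 24.7 CPM in control. The first control library was as high as the higher-dose ones, so the groups overlap, and the log2 fold change was 0.16 ± 0.08 (SE; edgeR, unadjusted p = 0.0465, adjusted p = 1.00). MRPL58, a peptidyl-tRNA hydrolase that releases chains from stalled ribosomes and is built into the large subunit, read 20.4, 19.4 and 18.4 CPM, against 17.2, 17.3 and 17.6 CPM in control, without overlap and with a log2 fold change of 0.16 ± 0.08.

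MRPS28, a small-subunit protein, read 2.05, 2.18 and 1.97 CPM at the higher dose, against 2.96, 2.72 and 2.87 CPM in control. At the lower dose it read 2.71, 2.83 and 3.20 CPM, on both sides of the control range. The 3 higher-dose libraries were the lowest of the 9. The log2 fold change of -0.46 ± 0.20 (SE; edgeR, unadjusted p = 0.0296, adjusted p = 1.00) had an interval from 0.547- to 0.966-fold and ran from -0.50 to -0.43 as each library was left out in turn. The gene had only 469 counts over all libraries, and 55.4% of its main transcript is shared in GENCODE 29 with AC036214.3 on the same strand. MRPL45, which faces the inner membrane at the tunnel exit, read 21.2, 21.2 and 21.4 CPM at the higher dose, against 25, 22.2 and 24.5 CPM in control. It read 19.5, 22.5 and 22.3 CPM at the lower dose, and its log2 fold change was -0.16 ± 0.08 at both doses (SE; edgeR, adjusted p = 1.00 at the higher dose and 0.792 at the lower dose). A copy that includes the pseudogene MRPL45P2 matches 29% of its main transcript.

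**Figure D3:**
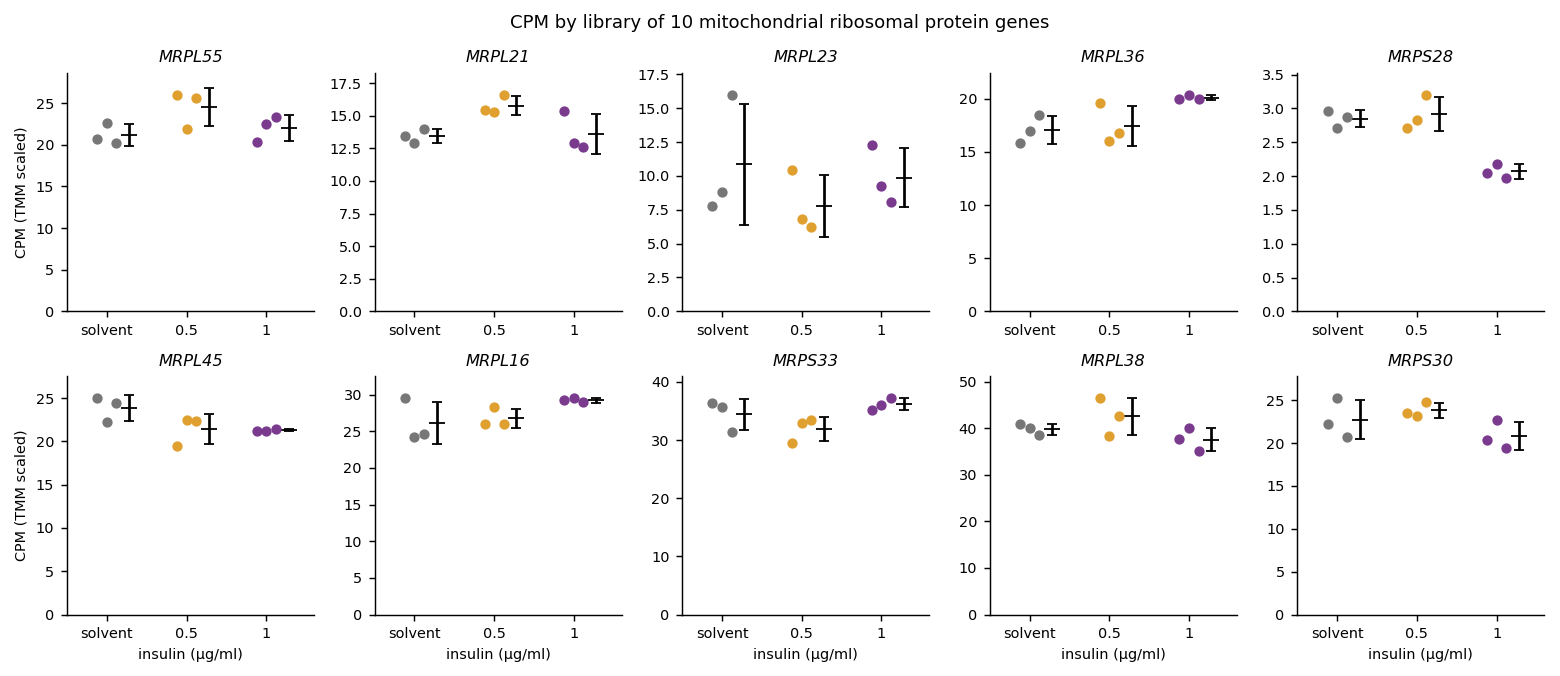
CPM in each library (points) for the 10 genes with an unadjusted p under 0.05 in any comparison, by insulin dose; black bars show the mean and SD of 3 libraries and every vertical axis starts at 0. MRPL21 at the lower dose and MRPL36, MRPL45 and MRPS28 at the higher dose do not overlap control, while MRPL16, MRPL23 and MRPL55 do. The 3 higher-dose libraries of MRPS28, at 1.97 to 2.18 CPM, lie below all its others. No gene shown passed the adjusted test.

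Groups did not overlap for 9 genes at the higher dose (all tested genes: 7.73%), 5 above control (3.81%) and 4 below (3.92%). The 5 were MRPL4, MRPL28, MRPL36, MRPL58 and MRPS18B, and the 4 were MRPL45, MRPL49, MRPL50 and MRPS28. MRPL28 was the only 1 of the 77 genes free of overlap with control at both doses, against 226 of all tested genes (1.78%), where the control libraries are shared. It read 48.9, 51.2 and 51.9 CPM in control, 53.3, 53.8 and 53 CPM at the lower dose and 54.1, 53.3 and 56.8 CPM at the higher dose. The log2 fold change was 0.07 ± 0.06 at the lower dose (SE; edgeR, adjusted p = 0.828) and 0.11 ± 0.06 at the higher dose (adjusted p = 1.00). By the order of p the other genes nearest to a call were MRPL53, MRPL14 and MRPL24 above 0 (0.07 to 0.14) and MRPS6, MRPS30, MRPL15, MRPL38 and MRPL18 below 0 (-0.15 to -0.06).

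Between the doses 43 of 77 genes were above 0, against 49.5% of all tested genes, and the median log2 fold change was 0.010, against -0.0012. At an unadjusted p under 0.05 there were 6 genes (all tested genes: 5.64%), 2 higher at the higher dose (2.45%) and 4 lower (3.19%). DESeq2 gave 3 genes at that level. MRPS33, a small-subunit protein without a bacterial counterpart, read 35.1, 36.1 and 37.2 CPM at the higher dose, against 29.6, 32.9 and 33.4 CPM at the lower dose, with a log2 fold change of 0.18 ± 0.07 (SE; edgeR, adjusted p = 0.850). Control, at 36.3, 35.6 and 31.4 CPM, overlapped both. MRPL38, a large-subunit protein of the central protuberance, read 37.6, 40.02 and 35.1 CPM at the higher dose, against 46.5, 38.4 and 42.7 CPM at the lower dose, with -0.18 ± 0.07. Its groups overlap, and 67.8% of its main transcript is shared with AC087289.3 on the same strand. MRPS30 read 20.4, 22.6 and 19.4 CPM at the higher dose, against 23.5, 23.2 and 24.8 CPM at the lower dose, with -0.20 ± 0.08. MRPS28 and MRPL36 differed here too, by -0.49 ± 0.20 and 0.20 ± 0.09, from the same higher-dose libraries as above, and MRPL21 by -0.21 ± 0.09. Groups did not overlap for 8 genes (all tested genes: 12.2%), 5 higher at the higher dose (5.85%) and 3 lower (6.31%). In a test of all 3 groups, 3 genes had an unadjusted p under 0.05 (all tested genes: 4.43%), namely MRPL21, MRPL36 and MRPS28, each with an adjusted p of 0.982 from edgeR.

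The stalk of the large subunit recruits translation factors. Its anchor MRPL10 read 35.8, 35.4 and 38.4 CPM in control, 38.4, 34.4 and 35.3 CPM at the lower dose and 33.8, 34.4 and 36.7 CPM at the higher dose. MRPL12, the flexible stalk protein that contacts the factors, read 43.4, 34.6 and 37.5 CPM in control, 42.3, 37.9 and 39 CPM at the lower dose and 37.3, 41.9 and 35.9 CPM at the higher dose. MRPL11, at the stalk base, read 20.2, 20.7 and 21.7 CPM in control, 21.7, 20.2 and 22 CPM at the lower dose and 22.4, 23.2 and 20.7 CPM at the higher dose. All 3 genes overlapped control at both doses, with log2 fold changes between -0.06 and 0.08 and none at an unadjusted p under 0.05. By FPKM, MRPL12 (38.5) stood above MRPL10 (17.7) and MRPL11 (8.92). Per kilobase of the main transcript the 3 genes read 37.8, 20.8 and 13.4 CPM in that order. MRPL12 is present in several copies per ribosome, and whether RNA level goes with copy number was not tested. Of the main transcript of MRPL12, 68.2% is shared with AC139530.2 on the same strand.

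The paralogs MRPS18A, MRPS18B and MRPS18C descend from 1 bacterial protein and take different places, MRPS18A in the large subunit and the other two in the small subunit. Their levels were 18, 18.8 and 8.43 FPKM as means over the 9 libraries. MRPS18A read 28.1, 25.6 and 23 CPM in control, 26.2, 23 and 25.4 CPM at the lower dose and 22.5, 24.8 and 26.5 CPM at the higher dose. MRPS18B read 35.4, 35.4 and 34.3 CPM in control, 33.8, 35.5 and 38.3 CPM at the lower dose and 36.6, 39.1 and 36 CPM at the higher dose. MRPS18C read 14, 10.4 and 12.7 CPM in control, 12.7, 12.9 and 15.9 CPM at the lower dose and 13.5, 13 and 12.6 CPM at the higher dose. None of their comparisons reached an unadjusted p of 0.05, with log2 fold changes against control from -0.05 to 0.16, and only MRPS18B at the higher dose parted from control. Opposite-strand genes cover 78.9% of the main transcript of MRPS18C (ABRAXAS1) and 56.9% of that of MRPS18A (RSPH9). Whether the counting used strand is not given in the sources used here, so reads of these pairs may not be separable.

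The genes lie on 21 chromosomes, 3 of them on chromosome 8, and do not form a cluster. A protein-coding gene starts head to head within 1000 bases for 17 of the 78. In 1 such case both partners are mitochondrial ribosomal proteins: MRPL46 and MRPS11 start 34 bases apart on chromosome 15. MRPL46 read 11.5, 10.2 and 9.55 CPM in control, 11.1, 9.71 and 10.4 CPM at the lower dose and 10.2, 10.5 and 11.7 CPM at the higher dose. Of its main transcript, 71.1% is shared with AC013489.1 on the same strand. MRPS11 read 20.5, 23.1 and 20.9 CPM in control, 25.5, 21.7 and 21.6 CPM at the lower dose and 23.9, 22.4 and 21.5 CPM at the higher dose. Both overlapped control at both doses. MRPL36 and MRPL47 each face a complex I gene, NDUFS6 and NDUFB5. For 9 of the 78 genes over 50% of the main transcript overlaps another annotated gene or has a near-identical copy (at least 95% identity over at least 50 bases), and 34 genes have 75 named pseudogenes between them, MRPS21 the most with 8. None of these pseudogenes is among the genes of the count table.

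The whole group moved little from library to library. For each gene the mean of its log2 CPM over the 9 libraries was removed, and the median of the 77 remainders was taken in each library. It was 0.036, -0.032 and -0.027 in the control libraries, -0.006, -0.011 and 0.020 at the lower dose and 0.020, 0.010 and -0.017 at the higher dose. The first control library lay at the top and the other two control libraries at the bottom, so that control spanned all the rest. In the first control library 52 of the 77 genes stood above their own mean, against 23 and 28 in the other two. The nuclear respiratory chain subunits read 0.020, -0.062 and -0.034 in control, -0.014, 0.000 and 0.054 at the lower dose and -0.002, 0.016 and 0.016 at the higher dose. Cytosolic ribosomal proteins read 0.037, -0.074 and -0.021 in control, -0.065, 0.011 and 0.089 at the lower dose and -0.027, 0.019 and 0.038 at the higher dose. The 3167 shortest tested genes read 0.018, -0.024 and -0.033 in control, 0.022, 0.008 and 0.031 at the lower dose and 0.003, 0.007 and -0.009 at the higher dose. The mitochondrial ribosomal protein genes are short, with a median length of 1540 bases by the authors' table, against 4113 for all tested genes. The part of gene length in these medians was not tested.

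**Figure D4:**
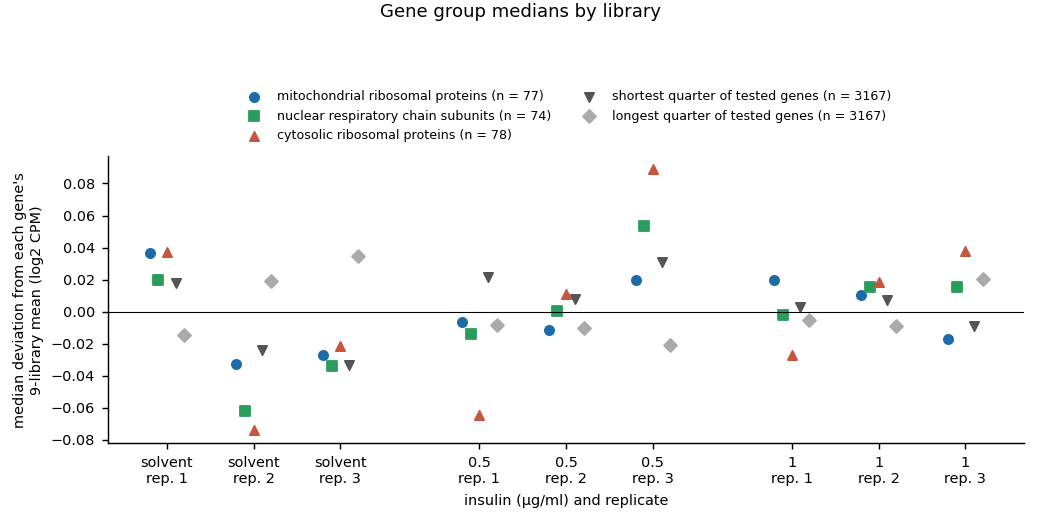
Median deviation from each gene's 9-library mean (log2 CPM) in every library for mitochondrial ribosomal proteins, 2 related gene groups and the 3167 shortest and 3167 longest tested genes. The mitochondrial ribosomal protein medians (blue) run from -0.032 to 0.036, with both ends in the control group.

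The remaining genes of mitochondrial translation gave no call either. Of 8 mitochondrial ribosome proteins listed under other names, 5 were in the count table. Of these 5, 3 were above 0 at the lower dose and 4 at the higher dose. DAP3, a GTP-binding protein of the small subunit, stood at 57.7 FPKM over all libraries, with log2 fold changes of 0.04 ± 0.06 at the lower dose and 0.02 ± 0.06 at the higher dose. AURKAIP1, also of the small subunit, differed by 0.13 ± 0.07 at the lower dose, and GADD45GIP1, of the large subunit, by 0.08 ± 0.07 at the higher dose. Of 30 genes listed for assembly of the ribosome and modification of its RNA, 24 were in the count table. Of these 24, 13 were above 0 at the lower dose and 9 at the higher dose. Among them the GTPase gene MTG2 differed by 0.13 ± 0.06 at the lower dose, the RNA methyltransferase genes METTL15 by -0.17 ± 0.11 at the lower dose and TRMT2B by 0.24 ± 0.13 at the higher dose.

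Of 20 translation factor genes in the count table (22 listed), 10 were above 0 at the lower dose and 14 at the higher dose. The elongation factor gene TUFM read 81.8, 73.3 and 74 CPM at the lower dose, against 72.7, 70.0 and 70.0 CPM in control, without overlap and with a log2 fold change of 0.11 ± 0.06 (SE; edgeR, adjusted p = 0.806). RMND1 differed by 0.17 ± 0.08 and the initiation factor gene MTIF2 by -0.12 ± 0.08 at that dose. Of 22 genes in the count table that charge mitochondrial transfer RNAs (24 listed), 11 and 10 were above 0. At the higher dose GATB, a subunit of the glutaminyl-tRNA amidotransferase, differed by 0.24 ± 0.09 (unadjusted p = 0.0178, adjusted p = 1.00 from edgeR) and the seryl-tRNA synthetase gene SARS2 by -0.21 ± 0.11. MARS2, for methionine, differed by -0.23 ± 0.11 at the lower dose.

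Of 14 regulators of mitochondrial transcription and biogenesis, 7 were above 0 at each dose. GABPA, the DNA-binding subunit of an ETS family factor, differed by -0.18 ± 0.09 at the lower dose, the elongation factor gene TEFM by 0.29 ± 0.17 and MTERF1 by 0.23 ± 0.16 at the higher dose, none of them called. Of 7 mitochondrial proteases, 5 and 2 were above 0. SPG7, a subunit of the m-AAA protease that processes MRPL32, differed by -0.17 ± 0.06 at the higher dose (SE; edgeR, unadjusted p = 0.0154, adjusted p = 1.00). MRPL32 itself read 24.5, 24 and 25.5 CPM in control, 23.7, 25 and 25.4 CPM at the lower dose and 25.8, 23.4 and 22.9 CPM at the higher dose, and its groups overlapped. The protease genes LONP1 and CLPP differed by 0.09 ± 0.05 and 0.10 ± 0.07 at the lower dose.

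The related families can be set beside these values. Of 89 nuclear respiratory chain subunits listed, 74 were in the count table and tested. Of these, 47 were above 0 at the lower dose and 55 at the higher dose. Their medians were 0.028 and 0.027, and none was called. Of the 78 cytosolic ribosomal protein genes 53 and 63 were above 0, with medians of 0.041 and 0.031, and none was called. At an unadjusted p under 0.05, 12 of these cytosolic genes were higher at the lower dose (all tested genes: 2.87%) and 2 at the higher dose (1.09%), with none lower at either. Above their own mean stood 22, 57 and 77 of the 78 in the 3 lower-dose libraries, against 55, 4 and 27 in control, so the lower-dose libraries differed widely among themselves. At the lower dose the differences included RPS28 by 0.19 ± 0.05, RPL17 by 0.41 ± 0.11 and RPS21 by 0.21 ± 0.07. Respiratory chain genes at the lower dose included COX6A1 at 0.15 ± 0.05 and UQCRQ at 0.18 ± 0.06, and COX7B differed by 0.14 ± 0.06 at the higher dose. The difference between these families was not tested.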

How the data were processed

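RNA sequencing was analysed for 9 KGN libraries in 3 groups of 3. The authors deposited raw read counts per gene symbol and FPKM values for the same genes. Trimmomatic, HTSeq, DESeq and the build hg38 are named, without versions, per the submitters' processing notes. Aligner, annotation and strand setting were not given in the sources used here. Both tables came from the authors, who deposited FPKM that restate the counts, since the gene length implied by both tables was whole within 4.58e-05 for 11053 genes of 50 or more counts per library. They were used for levels and for an alternative test.

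Counts were filtered with filterByExpr in edgeR 4.0.16 (minimum count 10, minimum total 15), which kept 12665 of 15983 genes. They were scaled by TMM and fitted in 1 model over all libraries with the quasi-likelihood F-test (R 4.3.3), and p-values were adjusted by Benjamini-Hochberg over the 12665 genes. All tests are two-sided. Standard errors were derived from the log2 fold change and F. The common biological coefficient of variation was 5.39%. A count of 0 allows up to 3 counts, or 0.147 to 0.158 CPM, and such limits cover counting error only. Libraries of a group differed by more than sampling noise (chi-square per degree of freedom 2.19 to 8.46), so none was treated as a repeat deposit of another. This does not show that they came from separate cultures. The fit was tested on simulated data.

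The genes, the lists and the rules were chosen with earlier results of these data known, so no test was made over a list. Named are, per dose, the 8 members of smallest p in each direction (4 between the doses), the 6 highest and 6 lowest in FPKM, any removed by the filter, the 4 most and 4 least variable above 10 CPM, the MRPS18 paralogs, the stalk proteins and up to 3 genes of each other list. MRPL46, MRPS11 and MRPL32, and the sequences shown, were chosen after their values were seen. Gene positions and overlaps come from GENCODE 29 on hg38, copies from blastn 2.17.0 and promoters from RefSeq, where an older symbol was followed only if no current gene bears it. Motif letters and fold bounds were set after values were seen. Bounds on fold changes are 95% intervals for each gene alone, without adjustment for the number of genes.

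Alternatives were DESeq2 1.42.0 without the filter, RLE size factors, no filter, a filter of 1 CPM in 3 libraries, models of 2 groups alone, replicate number as a block, limma 3.58.1 on log2(FPKM + 0.1) and log2(FPKM + 1) computed from the deposited FPKM, and leaving out each library in turn.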

Additional observations from a re-analysis of the deposited data

How the results depend on the processing

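No mitochondrial ribosomal protein gene was called under any of these alternatives, and the smallest adjusted p of a named member was 0.393. Over all genes, 1 was called in the 3-group test by DESeq2, and without the count filter 8 were called in the 3-group test, 3 at the higher dose, 4 between the doses and 6 at the lower dose. Leaving out a library in turn gave 0 to 3 called genes in the 3-group test (3 without the first lower-dose library), 0 to 2 between the doses (2 without that library), 0 to 1 at the lower dose and 0 at the higher dose. It moved the median log2 fold change of the members from -0.0031 to 0.048 at the higher dose, from -0.0043 to 0.022 between the doses and from -0.0056 to 0.019 at the lower dose. Members without overlap ran from 9 to 21, from 8 to 20 and from 6 to 18 in these comparisons, where fewer libraries make such gaps more frequent by construction. Of 731 values of named members under alternatives, 717 kept their direction and their side of the threshold and 14 changed sign. MRPL12 at the higher dose was 0.0025 with limma on log2(FPKM + 0.1) and 0.0024 on log2(FPKM + 1). The other 12 came from leaving out a library and lay near 0: MRPL10 at the lower dose (-0.069 to 0.016), MRPL12 at the higher dose (-0.073 to 0.091) and the lower dose (-0.024 to 0.14), MRPS18A at the higher dose (-0.12 to 0.017) and the lower dose (-0.11 to 0.033), MRPS18B at the lower dose (-0.018 to 0.074) and MRPS18C at the higher dose (-0.029 to 0.18). The cause was not tested. The replicate number as a block gave 0 called genes in every comparison. Same-numbered libraries correlated at 0.037 to 0.161 for the higher dose against control, with 6 of 6 libraries closest to their own number. Between the doses the range was -0.012 to 0.054, with 3 of 6 closest to their own number. For the lower dose against control it was -0.006 to 0.016, also with 3 of 6. The labels do not say that the number marks a shared culture or day, and the main test did not take the numbers as pairs. Overlap was not recounted for the block or for log2(FPKM + 1).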
